A study of Mus musculus with 12 samples.

Results

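The genes described here are 8 of the cholesterol synthesis pathway and its control by SREBP2: Srebf2 and Insig1, which regulate the pathway, and the enzyme genes Hmgcs1, Idi1, Fdps, Fdft1, Sqle and Cyp51. They were chosen by name, each was taken from the array probes annotated with its symbol alone, and all 8 were measured, out of 19937 genes. The tissue was the olfactory epithelium of male C57BL/6 mice, the lining high in the nasal cavity that holds the odour-sensing neurons together with sustentacular cells, basal stem cells and glands. The animals had lived in light and dark of 12 h each for at least 14 days and were then kept in constant darkness, and tissue was taken every 4 h from circadian time (CT) 12 to CT56. At each of the 12 time points the RNA of 4 mice (48 in total) was combined and read on 1 Affymetrix array, so the spread between single mice was not measured. Subjective night, the active phase of a mouse, is CT12 to CT24 and subjective day CT24 to CT36, and the second cycle (CT36 to CT56) repeats the 6 phases of the first (CT12 to CT32).

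Cholesterol is built in the endoplasmic reticulum from acetyl-CoA through mevalonate, isoprenoid units and squalene. SREBP2, the product of Srebf2, is a transcription factor made as a membrane protein. When sterols are plentiful, INSIG proteins hold it and its escort SCAP in the endoplasmic reticulum. When sterols run low it moves to the Golgi, is cut free, and switches on nearly all genes of the pathway, including Insig1 and Srebf2 itself. In mouse liver, transcripts of this pathway are known to vary over the day with feeding. All values below are log2 intensities as deposited, and levels are compared only within a probe.

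SREBP2 binds a sterol regulatory element, usually beside sites for NF-Y and Sp1. The 250 bases before the start of transcription were searched on both strands for TCACNCCAC and CACCCCAC (forms of the sterol regulatory element, which overlap), CCAAT (NF-Y), GGGCGG (the GC box of Sp1) and CACGTG (the E-box bound by the clock factors BMAL1 and CLOCK). RefSeq promoters of GRCm38.p6 were at hand for 5 of the 8 genes: Hmgcs1, Idi1, Cyp51, Insig1 and Srebf2. CCAAT was found in 5 of the 5, against 33.85% of all 32851 promoter windows, and GGGCGG in 5 of the 5, against 32.74%. TCACNCCAC was found in 1, that of Hmgcs1 (1.05% of all windows), as was the overlapping CACCCCAC (2.58%), and CACGTG in 1, that of Insig1 (6.02% of all windows). The Hmgcs1 window (chr13:119690101-119690350, plus strand) holds TCACCCCAC with its first base at -137 from the start and the NF-Y letters at -237, -176 and -45. The Insig1 window (chr5:28071162-28071411, plus strand) holds the E-box at -101 and the NF-Y letters at -216. The Srebf2 window (chr15:82147019-82147268, plus strand) holds the NF-Y letters at -135 and the GC box 4 times. These windows are shown because they carry the sterol element, the E-box, or the most GC boxes of the set, with the sterol element, NF-Y letters and E-box in capitals. A match is a description of the letters, not a site of binding. Only exact matches were counted, so a window without one can still hold a sterol regulatory element spelled otherwise. The Srebf2 window, for instance, holds tcaccccat, which differs from TCACNCCAC in its last letter.
Hmgcs1: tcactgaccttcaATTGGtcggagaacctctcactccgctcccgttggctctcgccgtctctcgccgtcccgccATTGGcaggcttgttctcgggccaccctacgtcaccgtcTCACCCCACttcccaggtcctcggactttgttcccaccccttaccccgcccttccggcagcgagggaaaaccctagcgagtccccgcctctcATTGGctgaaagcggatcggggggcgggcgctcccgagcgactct
Insig1: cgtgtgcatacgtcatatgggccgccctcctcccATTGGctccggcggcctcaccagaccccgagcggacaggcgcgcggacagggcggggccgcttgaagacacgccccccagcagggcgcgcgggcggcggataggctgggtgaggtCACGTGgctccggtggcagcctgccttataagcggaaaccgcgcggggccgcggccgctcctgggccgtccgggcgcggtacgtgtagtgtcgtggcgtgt
Srebf2: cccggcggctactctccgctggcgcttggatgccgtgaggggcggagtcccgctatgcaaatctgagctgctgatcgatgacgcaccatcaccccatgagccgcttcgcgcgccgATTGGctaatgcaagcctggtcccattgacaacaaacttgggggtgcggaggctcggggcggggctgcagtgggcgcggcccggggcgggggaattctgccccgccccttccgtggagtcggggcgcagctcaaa

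Markers of the labelled tissue were bright on every array. Omp, a marker of mature sensory neurons, read between 12.70 and 13.08 in the 12 pools, and Cyp2g1, a marker of the sustentacular supporting cells, between 13.64 and 13.79. The medians of the 12 arrays lay between 7.814 and 7.921. The spread of gene levels on an array differed more: its SD over all genes was 1.629 at CT32 and 1.648 at CT48, but 1.499 at CT36 and 1.52 at CT52. Pools with a wide spread read bright genes high and dim genes low. Of the 8 genes, 7 lay above the median level of all genes, and Cyp51 at the 47.6th percentile.

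The first comparison asked whether the 8 transcripts follow a 24 h rhythm, with a harmonic curve of 24 h fitted in limma to all pools. An adjusted p of 0.05 was passed by 0 of the 8 genes and by 0.0251% of all 19937 genes. An unadjusted p under 0.05 was reached by 0 of the 8 and by 3.54% of all genes (limma). Fitted amplitudes, the distance from mean to peak on the log2 scale, lay between 0.041 and 0.11, with a median of 0.051, against 0.065 for all genes. In the same fit the clock output gene Dbp had an amplitude of 0.51 ± 0.05 (SE, 12 pools). The largest fitted amplitude of the 8 genes was smaller than that of Dbp, and 1 pool per time point limits how small a rhythm can be seen.

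Insig1 encodes the protein that retains SREBP2 when sterols are plentiful, and it had the smallest p of the 8 genes. It read 12.01 at CT20 and 12.02 at CT44, in the late subjective night of both cycles, and 11.62 at CT52, 11.69 at CT36 and 11.78 at CT12. Its amplitude was 0.11 ± 0.05 (SE) and reached its crest at CT 19.8, where the fitted curve stood 1.17-fold over its lowest point (limma, unadjusted p = 0.0902, adjusted p = 0.996). The late night pools were the highest of the 12, but CT40 (11.97) and CT48 (11.94) lay close to them. The unadjusted p was 0.0307 without the CT32 pool, and the adjusted p was then 0.962. Srebf2 itself had an amplitude of 0.047 ± 0.052 (SE; limma, adjusted p = 0.996), which was 0.015 without CT32 and 0.085 without CT56. Its phase means lay between 9.57 (phase 20 h) and 9.69 (phase 8 h), closer together than the 2 pools of a phase, whose pooled SD was 0.15.

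Of the 8 genes, Sqle had the smallest spread between the pools of a phase. Sqle encodes squalene epoxidase, which adds oxygen to squalene in a rate-limiting step. By phase from 0 to 20 h, its second and first cycle pools read 9.70 and 9.76, 9.70 and 9.68, 9.92 and 9.93, 9.53 and 9.64, 9.55 and 9.54, and 9.81 and 9.71. The phase 8 h pools, CT32 and CT56, were the highest of the 12, and the phase 16 h pools, CT16 and CT40, were among the lowest 3. The pooled SD within a phase was 0.049, and the SD between the phase means was 0.14. The phase means were high at 20 h (9.76) as well as at 8 h (9.92). The 24 h curve had an amplitude of 0.10 ± 0.05 (SE), cresting at CT 4.2 (limma, adjusted p = 0.996). With phase as a factor in place of the cosine the unadjusted p was 0.0144 and the adjusted p 0.232 (limma). In that fit 3361 of all genes, or 16.9%, had an unadjusted p under 0.05. The other genes of the 8 had unadjusted p between 0.0923 and 0.968 (limma). Sqle was singled out here by its small spread within a phase, against which that fit measures phase. Its p is thus no independent support. Neighbouring phases 0 and 4 h (means 9.73 and 9.69) did not differ beyond their spread, nor did 12 and 16 h (9.58 and 9.54).

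Hmgcs1 encodes the cytosolic synthase that makes HMG-CoA, an early step of the pathway. Its pools ranged from 9.19 at CT36 to 9.86 at CT56, a 1.59-fold span. CT56 stood far above its partner of the same phase, CT32, at 9.49. Its amplitude was 0.11 ± 0.06 (SE), cresting at CT 4.5 (limma, adjusted p = 0.996). The other day pools lay between 9.41 and 9.53, and without CT56 the amplitude was 0.090 and the crest CT 1.6.

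Idi1, Fdps, Fdft1 and Cyp51 had amplitudes of 0.044, 0.049, 0.041 and 0.053, with SEs between 0.043 and 0.071. Idi1 encodes the isomerase that makes dimethylallyl diphosphate. It had the widest range of the 8, from 8.64 at CT36 to 9.34 at CT16. Its other probe ran from 8.38 at CT28 to 9.45 at CT56, and the 2 probes correlated at 0.13 over the 12 pools, so its values depend on the probe. Fdps encodes farnesyl diphosphate synthase, at the branch point to other isoprenoids. It had the narrowest range of the 8, from 9.90 at CT40 to 10.15 at CT20. Fdft1 encodes squalene synthase, the first enzyme committed to sterols. It lay between 11.18 at CT52 and 11.47 at CT48, and its 2 probes correlated at 0.79. Cyp51 encodes lanosterol demethylase, a cytochrome P450. It lay between 7.91 at CT56 and 8.23 at CT32, so that its lowest and highest pools were of the same phase.

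**Figure D1:**
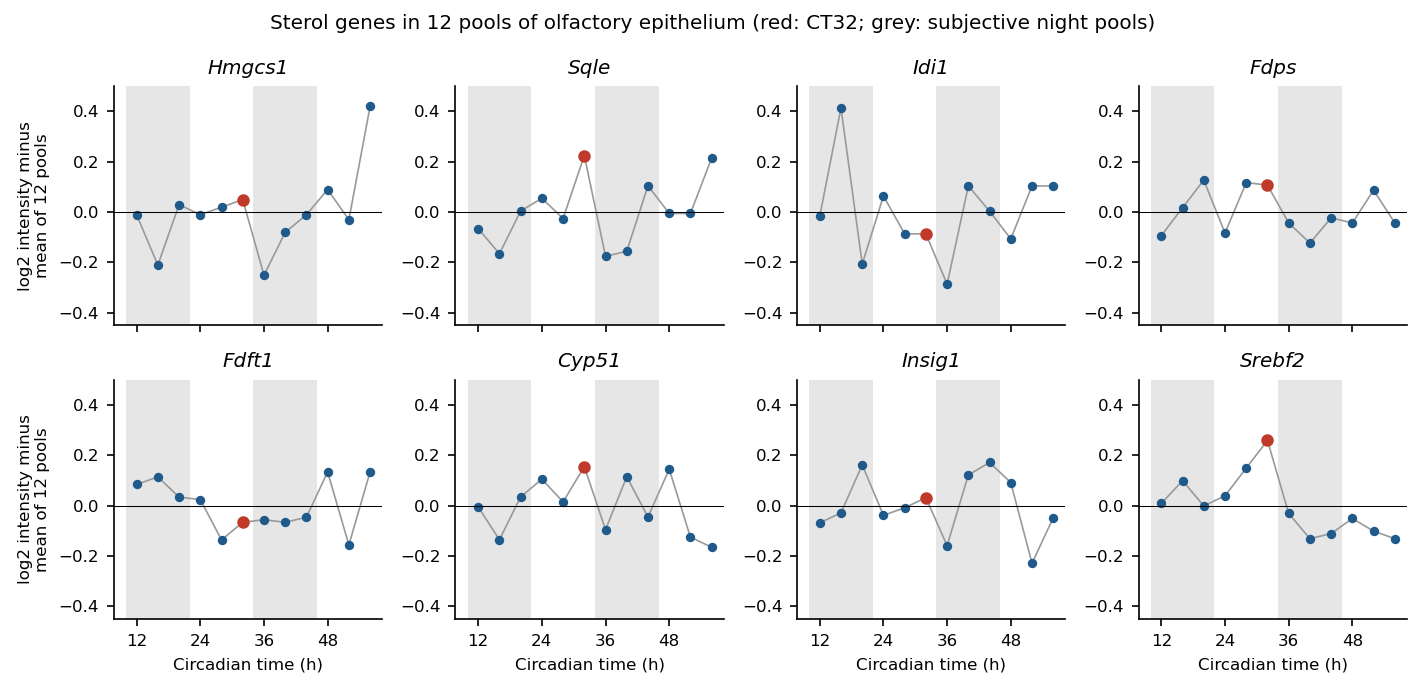
Each panel plots 1 gene as log2 intensity minus its mean over the 12 pools (vertical axis) against circadian time in h (horizontal axis). There is 1 point per pool, with CT32 in red. Grey bands are centred on the pools of each subjective night and do not mark its exact hours. Sqle is highest at CT32 and CT56, Insig1 at CT20 and CT44, and all 8 genes lie below their mean at CT36.

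The next comparison was of the 6 subjective night pools with the 6 subjective day pools. An adjusted p of 0.05 was passed by 0 of the 8 genes in limma (0.0% of all genes). An unadjusted p under 0.05 was reached by 2 (9.86% of all genes), both lower at night (5.69% of all genes) and 0 higher (4.17%). Hmgcs1 had a lowest value of 9.19 and a highest of 9.47 in the night pools, against 9.41 and 9.86 in the day pools. The means were 9.35 ± 0.12 at night and 9.53 ± 0.17 by day (SD, n = 6 each), and the groups overlapped. The difference was -0.18 ± 0.08 (SE; limma, unadjusted p = 0.0395, adjusted p = 0.497). Without the CT56 pool it was -0.11 (limma, unadjusted p = 0.0979), and over all settings it lay between -0.20 and -0.095. Sqle ranged from 9.53 to 9.81 at night and from 9.68 to 9.93 by day, with means of 9.63 ± 0.11 and 9.78 ± 0.11 (SD, n = 6 each). Its difference was -0.15 ± 0.07 (SE; limma, unadjusted p = 0.0401, adjusted p = 0.497), and the night pools CT20 and CT44 lay within the range of the day pools. With quantile normalization, which equalizes the spread of the arrays, the differences were -0.12 and -0.092 (limma, unadjusted p = 0.0954 and 0.135).

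The other 6 genes had differences between -0.056 for Srebf2 and 0.065 for Insig1. The median over the 8 was -0.045, beside -0.0044 over all genes and -0.050 over the genes above the median level, nearer the last. In 0 of the 8 were night and day pools free of overlap, beside 0.231% of all genes. Markers of respiratory ciliated cells, 4 of 4 measured and with list means of log2 intensity between 8.82 and 9.46 in the pools, had a mean deviation of -0.11 ± 0.17 at night and 0.11 ± 0.16 by day (SD, 6 pools each, relative to the mean of 12 pools). This was 1 of 15 cell type lists looked at. Markers of Bowman's glands lay further apart, at -0.25 ± 0.95 at night and 0.25 ± 0.60 by day (SD, 6 pools each). Those of bone and cartilage went the other way, at 0.12 ± 0.17 and -0.12 ± 0.21. The part of any of these cells in the values of Hmgcs1 and Sqle was not tested. In pooled tissue, fewer cells of a type and less RNA per cell cannot be told apart.

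Pools of the second cycle were set against those of the first at matched phases. Time in darkness and any array batch that ran along with it cannot be told apart, since the labels name no batch. An adjusted p of 0.05 was passed by 0 of the 8 genes in limma (0.0% of all genes). An unadjusted p under 0.05 was reached by 1 (13.2% of all genes), Srebf2, which was lower in the second cycle (8.94% of all genes), and by 0 in the other direction (4.22%). Among genes above the median level, where Srebf2 lies, 24.0% reached such a p in either direction when fitted alone (limma). Srebf2 read between 9.49 and 9.59 in the second cycle, against 9.62 and 9.88 in the first. The cycles did not overlap, as in 1.01% of all genes, and the second was lower in 6 of 6 pairs of pools. The means were 9.53 ± 0.04 in the second and 9.71 ± 0.10 in the first cycle (SD, n = 6 each), a difference of -0.18 ± 0.06 (SE; limma, unadjusted p = 0.00864, adjusted p = 0.304). Over the runs that left out 1 pool, the difference lay between -0.21 and -0.14, and it was -0.17 with quantile normalization. With phase in the fit, a pool whose partner of the same phase was left out adds nothing to that difference. Each such run thus drops a whole phase.

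Srebf2 had the lowest p of the 8 genes in this comparison, and the other 7 had differences between -0.065 for Fdps and 0.047 for Hmgcs1. The median of the 8 was -0.022, beside -0.026 over all genes and -0.047 over genes above the median level. Markers of immature sensory neurons, 5 of 5 measured, had a list mean of -0.10 ± 0.09 in the second and 0.10 ± 0.05 in the first cycle (SD, 6 pools each), and those of mature neurons -0.067 ± 0.079 and 0.067 ± 0.074 (7 of 7 measured). The list means of log2 intensity in all pools lay between 9.67 and 10.05 for the immature and between 12.15 and 12.52 for the mature neurons. These lists fell most of the 15 cell type lists, and their part in the value of Srebf2 was not tested. The night minus day difference was also compared between cycles. An adjusted p of 0.05 was passed by 0 of the 8 genes (0.0% of all genes, limma). An unadjusted p under 0.05 was reached by 0 (0.782% of all genes, 0.346% higher and 0.436% lower). The smallest was that of Fdft1, 0.0897 for a difference of -0.23, and over all settings it went down to 0.00899 (smallest adjusted p 0.923).

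**Figure D2:**
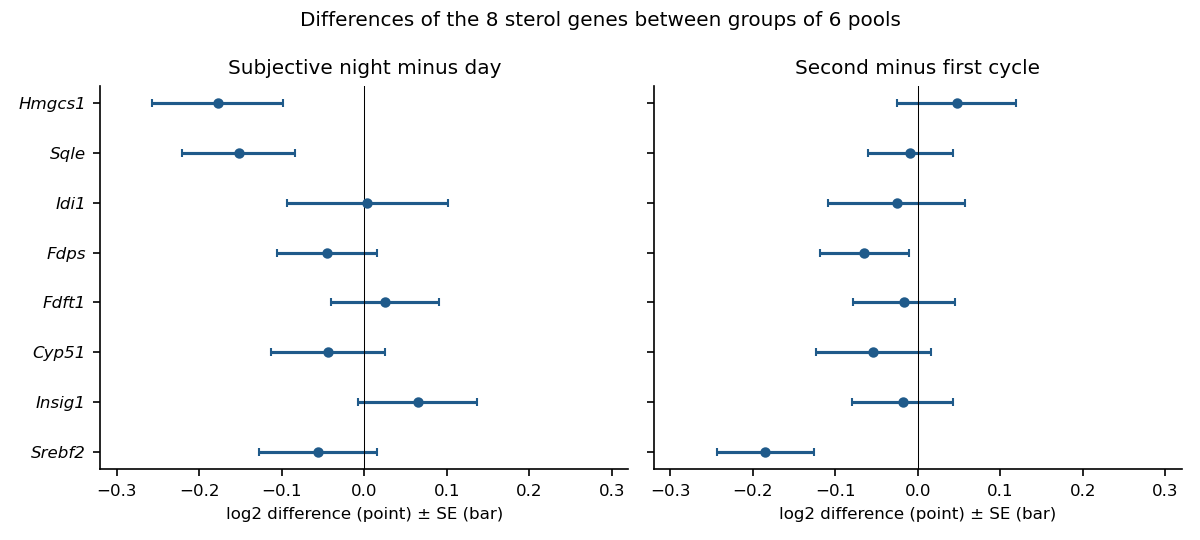
Points give the log2 difference of each of the 8 genes and bars its standard error from limma, on the left for subjective night minus day and on the right for the second minus the first cycle (6 pools per group). Hmgcs1 and Sqle lie lowest on the left, at -0.18 and -0.15, and Srebf2 on the right, at -0.18.

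The CT32 pool was singled out with earlier results known and is 1 array, so its level is a description without a test. The mean of the 8 genes was 0.084 above its average over the pools at CT32, the highest of the 12, and 0.060 above it at CT56. Srebf2, Sqle and Cyp51 had their highest value there, 3 of 8 genes, as 23.2% of all genes did. Srebf2 read 9.88 at CT32, against a mean of 9.60 ± 0.09 over the other 11 pools (SD), a difference of 0.28. Sqle read 9.93 against 9.68 ± 0.12, and Cyp51 8.23 against 8.06 ± 0.11. Fdps was 0.12 higher, Hmgcs1 0.058 and Insig1 0.036, while Idi1 and Fdft1 read 0.092 and 0.077 below the other pools (differences -0.092 and -0.077). A difference of 0.3 was reached by 0 of the 8 genes and 7.15% of all genes, one of 0.2 by 2 of the 8 (19.4%), and one of 0.5 by 0 of the 8 (0.602%).

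The median difference of the 8 genes at CT32 was 0.088, beside 0.052 over all genes and 0.12 over genes above the median level. Genes above the median level at large thus read high in this pool, and the median of the 8 genes was below theirs. With quantile normalization the 3 medians were 0.037, 0.033 and 0.047. The opposite pool was CT36, where 8 of 8 genes lay below their own mean, by 0.14 on average (mean deviation -0.14). The brightest 25% of all genes had a median of -0.12 there, and the dimmest 25% one of 0.12. In the CT52 pool the 8 genes averaged -0.058, beside -0.073 in the brightest 25%.

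Some gland markers were also high at CT32. The list mean, over 5 of 5 measured genes, read 11.73 there, within a range of 9.51 to 12.25 over the 12 pools. The odorant-binding protein gene Obp2a read 13.73 at CT32, 2.86 above the mean of the other pools, and Obp1a and Bpifb9b were 1.93 and 1.20 higher. The mucin gene Muc5b differed by 0.026, and Sox9 by -0.14, with its lowest value of the 12 pools at CT32. At CT44 the gland list was higher still, at 1.60 above its average, and the 8 sterol genes averaged 0.008 above theirs. Markers of adipocytes and of the sebaceous gland and epidermis, other tissues rich in lipid synthesis, had list means at CT32 of 0.001 and 0.007 relative to their average. The adipocyte list read between 6.22 and 6.73 over the 12 pools, and the sebaceous and epidermal list between 6.67 and 6.90. Both ranges lie below 7.814, the lowest median of the 12 arrays, so these lists were dim. The part of these tissues in the values of the 8 sterol genes was not tested.

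**Figure D3:**
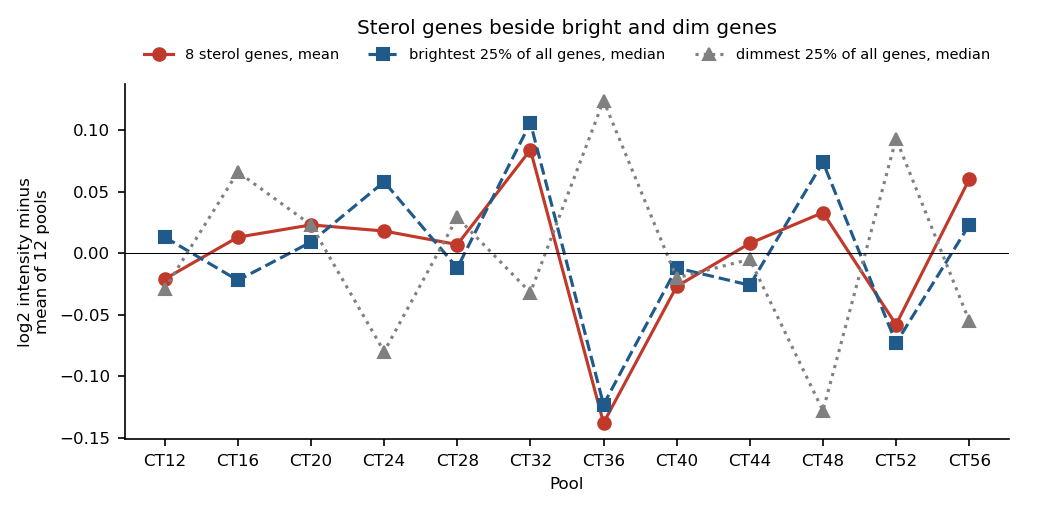
The vertical axis is log2 intensity minus the mean of the 12 pools, the horizontal axis the pool. The mean of the 8 sterol genes (red) is highest at CT32 (0.084) and lowest at CT36 (-0.14), as is the median of the brightest 25% of genes (0.11 and -0.12, blue), while the dimmest 25% (grey) read 0.12 at CT36.

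Correlations between the 8 genes centred near 0. Over the 28 pairs of genes the median Pearson correlation across 12 pools was 0.02, beside 0.03 over all pairs of the 19937 genes. A correlation of at least 0.5 was reached by 3 pairs, or 10.7%, beside 18.2% of all pairs. The highest was that of Hmgcs1 and Sqle, at 0.785, which was 0.862 without CT32. Next came Fdps with Srebf2 at 0.541 (0.411 without CT32), and Cyp51 with Insig1 at 0.539 (0.557 without CT32). Without CT32, 2 pairs reached 0.5. The lowest was that of Fdps and Fdft1, successive enzymes, at -0.406. These correlations share the arrays and their spread and carry no test.

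The genes most like the mean standardised profile of the 8 were Cnot10 (r = 0.957 over 12 pools), Iqgap1 (0.953), Dock9 (0.945), Ep300 (0.938), Nt5dc3 (0.938) and Sec24b (0.937). Cnot10 read 9.29 at CT32, 8.86 at CT36 and 8.95 at CT52, its highest value and the lowest 2. The 8 genes themselves correlated with that mean at 0.122 for Idi1 to 0.697 for Sqle. The outside genes were picked as the highest by this r among all genes outside the lists. Their larger values are thus no result about the 8. Without CT32 the closest were Cds1 (0.970), Naa35 (0.952) and Iqgap1 (0.945).

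The rest of the pathway was examined from fixed lists. Of 12 other sterol enzymes measured, 0 passed the 24 h fit in limma, 0 reached an unadjusted p under 0.05, and their median amplitude was 0.070. At night 3 of the 12 read lower at an unadjusted p under 0.05 (5.69% of all genes) and 0 higher (4.17%), and 0 passed the adjusted p. Their median difference was -0.075, beside -0.050 over genes above the median level. Those were the demethylation enzyme gene Msmo1 at -0.25 ± 0.10 (SE), Ebp at -0.17 and Nsdhl at -0.11 (limma, unadjusted p = 0.0225, 0.0439 and 0.0489). Msmo1, like Hmgcs1, had a low value at CT16 and its highest at CT56. Ebp and the sterol-regulated membrane protein gene Tmem97 also had their lowest value at CT16 and their highest at CT56. So did the ciliated cell marker Ccdc39, and 15.9% of all genes were highest at CT56. Cyp51 and Dhcr7 had their lowest value at CT56, and the likeness was not tested. Between cycles, 3 of the 12 had an unadjusted p under 0.05 in limma and read lower in the second (8.94% of all genes). In the other direction it was 1 (4.22%), Msmo1, and 0 passed the adjusted p. Lss, which encodes the enzyme that closes the sterol rings, had a difference of -0.24, and Msmo1 one of 0.21 (limma, unadjusted p = 0.00271 and 0.0135).

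Of all genes, 61.7% read above the mean of the other pools at CT32, and the counts that follow stand beside that share. A difference of at least 0.3 was reached by 7.15% of all genes. Genes above the median level read high at CT32 at large, with a median of 0.12, and their share above the other pools was not counted. Of 7 measured genes of SREBP control, 0 passed the 24 h fit, and 7 of 7 read higher at CT32, with a median of 0.20. Rnf139, which encodes a sterol-regulated ubiquitin ligase, was 0.36 higher, Erlin2 0.33 and the protease gene Mbtps1 0.24. Between cycles, 2 of the 7 had an unadjusted p under 0.05 in limma and read lower in the second (8.94% of all genes), and 0 higher (4.22%). These were Erlin2 at -0.19 and Scap, the escort of SREBP2, at -0.17 (limma, unadjusted p = 0.0185 and 0.0165). The median of the 7 was -0.076, and 1 of them, Rnf139, read higher, at 0.039. Among genes above the median level, 24.0% reached such a p in either direction when fitted alone (limma). Of 9 genes of sterol uptake and transport, 8 read higher at CT32, led by Lipa, the lysosomal lipase gene, at 0.40, and Scarb1 at 0.32. Fatty acid synthesis, the branch driven mainly by SREBP1, had 16 of 16 genes measured, with 14 higher at CT32 and a median of 0.14. There Gpam was 0.36 and the desaturase gene Fads1 0.31 higher.

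Of 11 measured genes of cholesterol efflux and the liver X receptors, 7 read higher at CT32, near the share of all genes, with a median of 0.072, and the 24 h fit gave 0 an unadjusted p under 0.05. The closest there was Cyp27a1, a mitochondrial sterol hydroxylase gene, with an amplitude of 0.12 ± 0.045 (SE), cresting at CT 5.9 (limma, unadjusted p = 0.0522, adjusted p = 0.996). Abcg1 was nearly level with it but crested at CT 21.4, with an amplitude of 0.14 ± 0.05 (SE; limma, unadjusted p = 0.0524, adjusted p = 0.996). Of 11 measured genes of the non-sterol isoprenoid branch, 10 read higher at CT32, with a median of 0.15, and Pggt1b, a prenyltransferase subunit gene, was 0.36 higher. The 6 lists together held 0 genes past the adjusted p of 0.05 in limma in the 24 h fit, in night against day or between cycles. Their medians at CT32 lay between 0.072 and 0.20, and that of the 8 genes was lower than the medians of 5 of the 6.

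**Figure D4:**
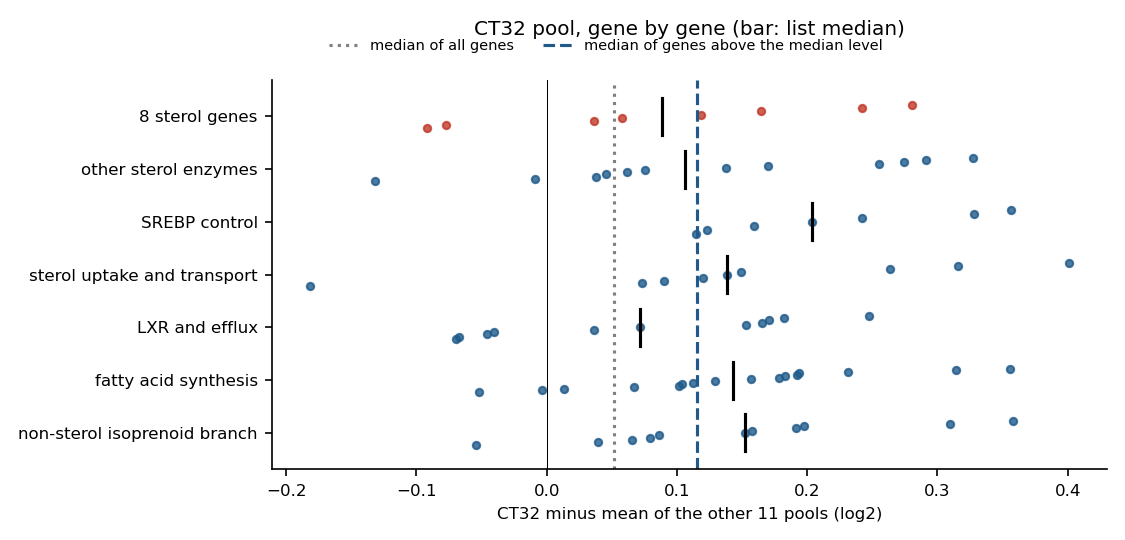
Each point is 1 gene, placed on the horizontal axis by its log2 intensity at CT32 minus the mean of the other 11 pools. Black bars give the list medians, 0.088 for the 8 sterol genes (red) and 0.20 for SREBP control, and the vertical lines the medians of all genes (0.052, dotted) and of genes above the median level (0.12, dashed).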

How the data were processed

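The deposited values are 1 log2 intensity per probe and pool, taken as log2 because they span 3.48 to 14.47 and a natural log of 16-bit scanner data ends at 11.09. Per the labels' protocols, RNA was isolated with Trizol and made into biotin-labelled target with a random-primed kit. The submitters' processing notes name affy. Background correction and normalization: not given in the sources used here. Values were used as deposited.

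Of 34760 probes, 21640 had 1 symbol in the platform annotation, 1321 several and 11799 none, and 21553 matched RefSeq (GRCm38.p6) by Entrez ID. The probe with the highest mean stood for a gene, and 1 probe that names Srebf2 among several genes was not used. limma 3.58.1 in R 4.3.3 was fitted on 19937 genes, with Benjamini-Hochberg adjustment and a threshold of 0.05, and tested on simulated data. The p-values rest on the spread of pools of mice about the fitted model, and the number of arrays limits precision. In the 24 h, night and interaction fits that spread includes differences between phases that the model leaves out. The members and lists were chosen with earlier results of these data known. Named genes are the members, clock genes, the 6 most alike genes with and without CT32, and of each list the 3 with the smallest p in the 24 h fit and the 3 highest at CT32. Omp and Cyp2g1 were added to check the tissue, and Muc5b to give the gland list in full. Listed genes without a probe of 1 symbol were not analysed here. Figures were drawn with matplotlib 3.10.9.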

Additional observations from a re-analysis of the deposited data

Results flagged for a closer look

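Each of the 8 genes and their mean was screened for a pool far from the others within the 6 night, 6 day, 6 second cycle and 6 first cycle pools. In 36 such groups, 3 pools had a gap to their nearest neighbour above Dixon's 95% value for 6 samples, where chance, which marks about 1 in 20 groups, gives about 1.8. In Hmgcs1, CT56 was the high pool of the day (ratio 0.717) and CT16 the low pool of the first cycle (0.745). The mean of the 8 genes was low at CT36 among the night pools (0.688). At CT32 the gap of that mean among the first cycle pools was 0.574 of the range, below Dixon's value.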

How the results depend on the processing

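None of the 8 genes passed in any comparison under any setting tried: quantile normalization, median centring, the mean of all probes, leaving out genes below the 25th or 50th percentile (the latter drops Cyp51), a trended robust prior, array weights, 24 h replaced by 22 or 26 h, phase taken as a factor, a linear term, a replicate block for cycle, and leaving out each pool. The median amplitude lay between 0.044 and 0.077 without 1 pool and between 0.049 and 0.13 otherwise. The night minus day median lay between -0.070 and -0.016 without 1 pool and between -0.067 and 0.006 otherwise, and that of the cycles between -0.046 and 0.002 and between -0.030 and -0.010. At night, 2 of the 8 had an unadjusted p under 0.05, as with the replicate block, 0 with quantile normalization or without CT16, CT36, CT40 or CT56, and 1 with array weights or without CT12, CT24, CT32 or CT48. Pools share replicate numbers only through their cycle, not through animals, and with that replicate block the night difference of Hmgcs1 was -0.178 (limma, unadjusted p = 0.0439). For the change of the night difference between cycles, 0 of the 8 had an unadjusted p under 0.05, but 1 with array weights or without CT52. The number of the 8 genes at least 0.3 higher at CT32 was 0, but 2 against CT56 alone, 1 against CT28 and CT36, and 2 with a bound of 0.2. Signs turned only in differences far from the threshold. At night these were Fdps (0.011 with quantile normalization, 0.035 with array weights), Srebf2 (0.00184 with quantile normalization) and Idi1 (-0.019 with median centring, -0.092 with all probes, -0.023 with array weights). Between cycles they were Sqle (0.00226 with quantile normalization, 0.024 with array weights), Idi1 (0.147 with all probes, 0.021 with array weights) and Insig1 (0.00718 with array weights). The fitted peak of Idi1 moved by over 6 h with all probes (amplitude 0.021). Without 1 pool, night minus day lay between -0.079 and 0.062 for Idi1 and between -0.00398 and 0.055 for Fdft1. Second minus first cycle lay between -0.016 and 0.103 for Hmgcs1, -0.033 and 0.012 for Sqle, -0.074 and 0.031 for Idi1, -0.060 and 0.015 for Fdft1, and -0.051 and 0.022 for Insig1, and the Idi1 amplitude between 0.031 and 0.095. Of all genes, 5 passed the 24 h fit, but 17 with phase as a factor, 0 at 22 h, 2 at 26 h, and 3 without CT20, CT24, CT36, CT44 or CT48. Between cycles 0 passed, but 17 with array weights, 1 with the trended prior or the 25th percentile filter, and 18 without CT12 or CT36. Leaving out either of these pools gives the same result, since they are partners of 1 phase in that fit. The cause was not tested.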
